A study of Rattus norvegicus and Mus musculus with 18 samples.

Results

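Fibroblast growth factors (FGFs) and their receptors were followed across the tissues of the embryonic kidney, as 10 genes measured by 42 probe sets. The genes were the ligands Fgf7, Fgf8, Fgf9, Fgf10 and Fgf20, the receptor tyrosine kinases Fgfr1, Fgfr2, Fgfr3 and Fgfr4, and the kinase-lacking receptor Fgfrl1. A probe set was taken when the array annotation gave it just 1 of these symbols, whatever its level. This gave 22 mouse probe sets for all 10 genes, out of 45037 probe sets and 18193 named genes. In rat it gave 20 probe sets for 7 genes, out of 26202 probe sets and 10969 named genes on 3 array designs. The rat genes were Fgf7, Fgf9, Fgf10, Fgfr1, Fgfr2, Fgfr3 and Fgfr4.

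The branching epithelium of the ureteric bud becomes the collecting duct tree, and the metanephric mesenchyme around it becomes nephrons and stroma. Mouse kidneys at embryonic stage E12.5 were dissected into bud tips, bud stalks and mesenchyme, in pools of about 1000, 350 and 300 pieces. Rat kidneys at stage E13.5 were dissected into about 1200 whole buds and 240 mesenchymes. Per the labels, all tissues were digested for 10 min with trypsin and DNase, and each RNA was labelled 2 times, giving 2 arrays per tissue and design. The labels name no strain, genotype or treatment, and nothing says that the 2 arrays came from separate embryos, so each p-value measures the spread between labelings of 1 pool. The 3 rat designs were hybridised with the same tissues and are called here the first design, B and C.

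FGF ligands bind receptors together with heparan sulphate on the cell surface, and the activated receptor works through adaptor proteins and the Ras-ERK cascade. That cascade induces its own inhibitors, such as the Sprouty proteins, and ETS factors such as Etv4 and Etv5. In the developing kidney, Fgfr2 in the bud epithelium is known to be needed for normal branching, while Fgf9 and Fgf20 are known to maintain nephron progenitors and Fgf8 is known to be needed for nephron formation. Fgf7 and Fgf10 are made by stroma and mesenchyme in many organs and signal to epithelium through the epithelial splice form of Fgfr2.

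The values are intensities on a linear scale, quantile normalised among the arrays of 1 table. A difference is the difference of mean log2(intensity + 16), which understates the change of dim probe sets. A probe set was tested where at least 1 tissue mean reached the table median, which was 49.3 in mouse and 111, 118 and 115 on the rat designs. It was called when limma's Benjamini-Hochberg adjusted p was under 0.05 and the fold reached 2. Adjusted p-values throughout come from these limma fits over all tested probe sets. Of the 22 mouse probe sets 18 were tested, for 9 genes, and of the 20 rat probe sets 7 of 12, 2 of 2 and 4 of 6 were tested on the first design, B and C. Of these, 4 mouse probe sets passed this filter through a single tissue, the one in which they read highest: both for Fgf7 through stalks, and those for Fgf8 and Fgf20 through mesenchyme. In rat, L19107_s_at for Fgfr2 and M91599mRNA_g_at for Fgfr4 passed through buds alone. Counts and medians over the tested probe sets are therefore given as descriptions. A level is compared between tissues for the same probe set only, since probe sets differ in how brightly they hybridise.

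The labelled tissues were checked against marker genes. The summed intensity of 11 bud epithelium markers, Cdh1 and Ret among them, was 28021 to 28785 in tips, 15442 to 15539 in stalks and 756 to 802 in mesenchyme. That of 14 stromal and ureteric mesenchyme markers was 4015 to 4179 in tips, 27115 to 27433 in stalks and 25973 to 27011 in mesenchyme, with the mean of all 14 at or above the median of the array in stalks. For 11 nephron progenitor markers it was 1061 to 1232, 3240 to 3306 and 9449 to 9452. Stalks therefore read as bright for stromal markers as mesenchyme did. The part of such stromal RNA in the results below was not tested, and in pooled tissue fewer cells of a type and less RNA per cell cannot be told apart. Summed erythroid, endothelial, macrophage and neuronal markers were also lowest in tips and highest in mesenchyme, for example 8891 to 9476, 16681 to 16731 and 22347 to 22561 for 6 erythroid markers. Not every gene followed its sum. Epor, Klf1, Ptprc and Tubb3 had slightly higher means in tips than in stalks, differences that did not pass. Summed early nephron markers (9 genes) were 4349 to 4389, 2657 to 2686 and 1462 to 1499, but the genes differed in direction. Pou3f3 and Jag1 read highest in tips, whereas Cdh6 was called lower in tips than in stalks (-1.09) and than in mesenchyme (-1.10). On the first rat design, 5 epithelium markers summed to 3381 to 3394 in buds and 472 to 473 in mesenchyme, and 11 stromal markers to 1736 to 1998 and 8457 to 9250. On design C, 4 epithelium markers summed to 2961 to 2972 in buds and 295 to 330 in mesenchyme and 4 stromal markers to 499 to 523 and 920 to 1002, of which 1 was called lower in buds. The 1 nephron progenitor marker there, Crym, went against its list and was called higher in buds (2.69). Among the rat arrays, the second bud labeling stood apart. Its Gapdh control read 4.43, 5.28 and 4.26 times as bright at the 3' end as at the 5' end on the first design, B and C, against 1.25 to 1.47 on all other rat arrays and 0.903 to 1.01 in mouse.

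Most ligand probe sets read near or below the median of the array. Fgf20 read brightest in mesenchyme, while both Fgf9 probe sets read brighter in tips and both Fgf7 probe sets read brightest in stalks. Fgf20 belongs to the same subfamily as Fgf9. Its probe set 1421677_at read 17.2 and 21.6 in tips, 21.3 and 20.2 in stalks, and 75.4 and 42.6 in mesenchyme. Mesenchyme was the only tissue in which it reached the median of the array, and it was tested for that reason. Both mesenchyme arrays lay above all 4 bud arrays, and the 2 mesenchyme arrays differed from each other more than tips from stalks. Tips were 1.05 log2 units below mesenchyme (difference -1.05, SE 0.20, adjusted p = 0.00359), and stalks narrowly missed 2-fold (-0.99, SE 0.20, adjusted p = 0.0120). The call in tips was lost with a larger added constant of 64 (-0.55), against a 1.5-fold null (adjusted p = 0.243) and without the first tip array (-0.96), whereas that in stalks was gained on the values as deposited (-1.05), with median scaling (-1.04), with an added constant of 1 (-1.41) and without the second mesenchyme array (-1.32). Without the first mesenchyme array, or with the filter at the 75th percentile, the probe set fell under the threshold and was not tested. Tips and stalks did not differ beyond their spread (-0.06, 95% interval -0.52 to 0.40).

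Fgf9, a ligand of both bud and nephron progenitors, was measured by 2 probe sets that followed the same order. With 1420795_at the tip arrays read 136 and 102, the stalk arrays 73.7 and 76.0, and the mesenchyme arrays 71.5 and 75.7. Probe set 1438718_at read 138 and 106 in tips, 85.8 and 75.7 in stalks, and 86.7 and 65.0 in mesenchyme. Every tip array was above every other array, and stalks overlapped mesenchyme. Against mesenchyme the tip difference was 0.58 for each probe set, with adjusted p-values of 0.0163 and 0.0284 (SE 0.15 and 0.17). Against stalks it was 0.56 (SE 0.15, adjusted p = 0.0230) and 0.50 (SE 0.17, adjusted p = 0.0597). No Fgf9 difference reached 2-fold, and stalks and mesenchyme were 0.02 and 0.08 apart, with 95% intervals from -0.32 to 0.36 and from -0.31 to 0.47.

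Fgf7, also called keratinocyte growth factor, was brightest in stalks. Probe set 1438405_at read 23.7 and 20.7 in tips, 49.9 and 56.7 in stalks, and 30.8 and 23.5 in mesenchyme. Its stalk arrays were the only ones at or above the median of the array, and it was tested for that reason. Tips were below stalks by 0.86 on the log2 scale (-0.86, SE 0.14, adjusted p = 0.00222), which is under 2-fold on this scale but became a call with an added constant of 1 (-1.23). Stalks were above mesenchyme by 0.69 (SE 0.14, adjusted p = 0.0134), while tips and mesenchyme overlapped. The other probe set, 1422243_at, read 33.6 and 39.7 in tips, 50.7 and 54.1 in stalks and 39.5 and 47.1 in mesenchyme. Its order was the same, but the largest of its differences, tip minus stalk, did not pass (-0.38, SE 0.14, adjusted p = 0.0768). Summed stromal markers were well above those of tips in stalks (27115 to 27433) and in mesenchyme (25973 to 27011). Fgf7 read lower in mesenchyme than in stalks on both probe sets, so it followed these sums for tips and stalks only. The part of stromal RNA in its level was not tested.

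Fgf8 and Fgf10 sat near or below the threshold for testing. Fgf8 was measured by 1451882_a_at at 38.5 and 27.8 in tips, 36.2 and 31.1 in stalks and 57.5 and 45.8 in mesenchyme. Both mesenchyme arrays were the highest, yet the differences of tips (-0.46, SE 0.16, adjusted p = 0.0563) and stalks (-0.44, SE 0.16, adjusted p = 0.123) from mesenchyme did not pass. Fgf10, a signal from mesenchyme to epithelium in lung and limb, was not tested, because its probe set 1420690_at read 31.4 and 43.0 in tips, 27.1 and 30.3 in stalks and 47.6 and 43.2 in mesenchyme. Its 2 mesenchyme arrays were again the highest, the second of them only just above a tip array. At such intensities the arrays do not show whether the ligand was absent or only dim.

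**Figure D1:**
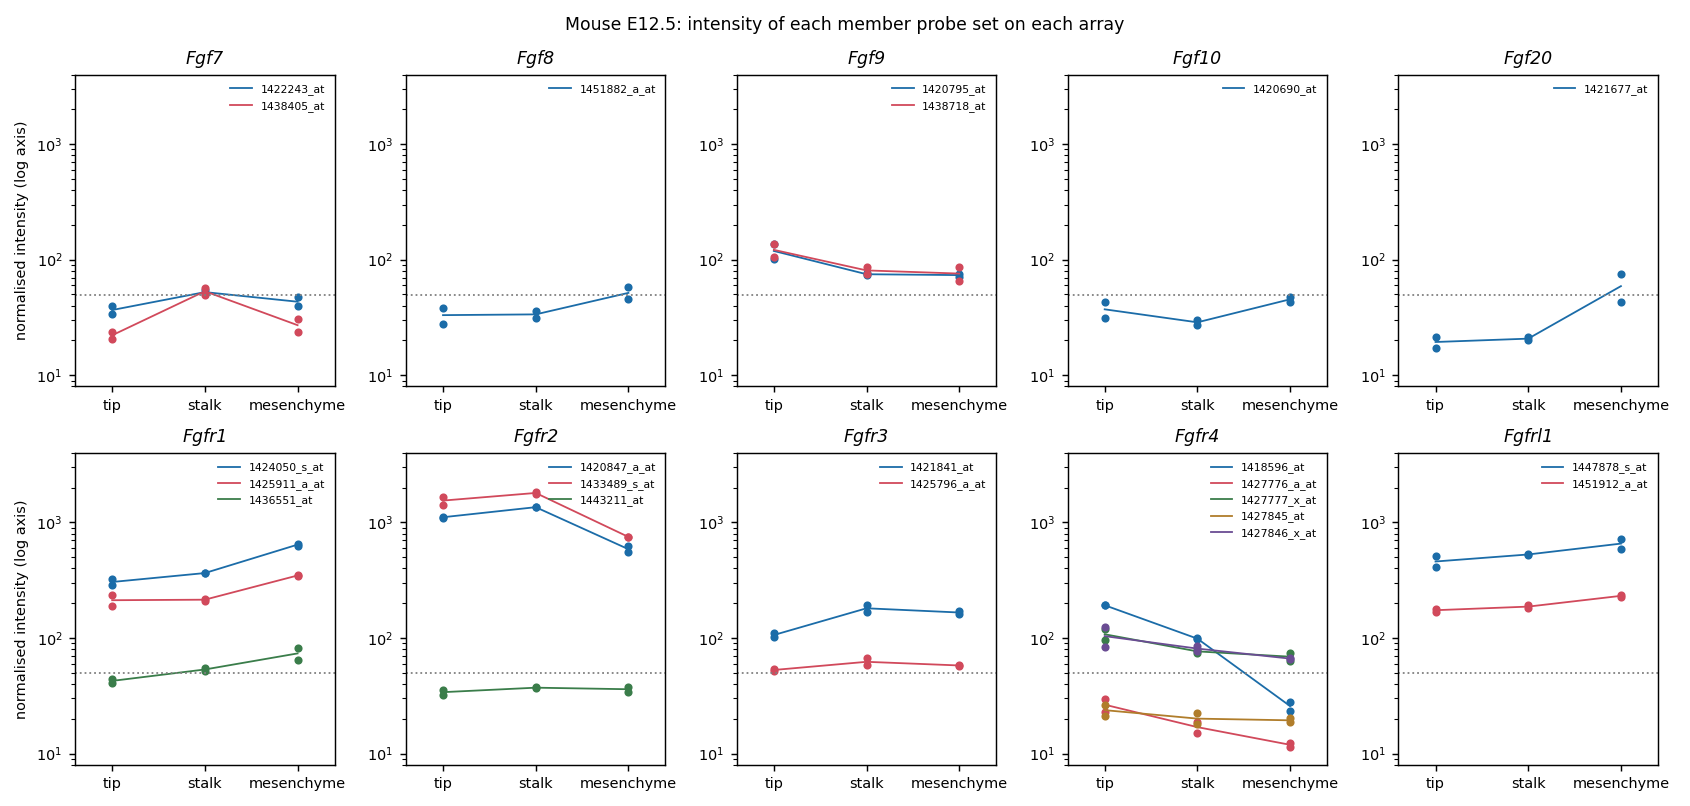
Normalised intensity (log axis) of all 22 mouse probe sets in tips, stalks and mesenchyme, 1 panel per gene. Points are the 2 arrays of a tissue, lines join tissue means, colours are probe sets and the dotted line is the median of the array, 49.3, used as threshold for testing. The bright Fgfr2 probe sets are lowest and Fgfr1 is highest in mesenchyme, while 1 of the Fgfr4 probe sets falls from 192 in tips to 23.4 and 28.1 in mesenchyme.

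Receptors divided between the tissues. Fgfr4 read higher in bud tissue than in mesenchyme and Fgfr1 read higher in mesenchyme, in both species, and Fgfr2 read higher in mouse bud tissue and on 1 called rat probe set. Among the 18 tested mouse probe sets, 2 were called higher in tips than in mesenchyme, for Fgfr4 and Fgfr2, where 3.89% of all tested probe sets were. Another 2 were called lower, for Fgf20 and Fgfr1, where 4.26% of all were. That for Fgf20 had passed the filter through mesenchyme alone, the tissue in which it read highest. Between stalks and mesenchyme 3 were called higher, 2 for Fgfr2 and 1 for Fgfr4, beside 2.34% of all, and 0 lower, beside 0.426%. Between tips and stalks 0 of 18 were called in either direction, where 0.951% of all were higher in tips and 3.63% lower. With the adjusted p alone, 7 of 18 passed between tips and stalks, 14 of 18 between tips and mesenchyme and 7 of 18 between stalks and mesenchyme, against 28.5%, 33.6% and 13.1% of all tested probe sets. The median difference over the 18 was -0.14, -0.17 and 0.08 in these comparisons and over all tested probe sets it was 0.06, 0.01 and -0.05. Each pair of these comparisons shares the arrays of a tissue.

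**Figure D2:**
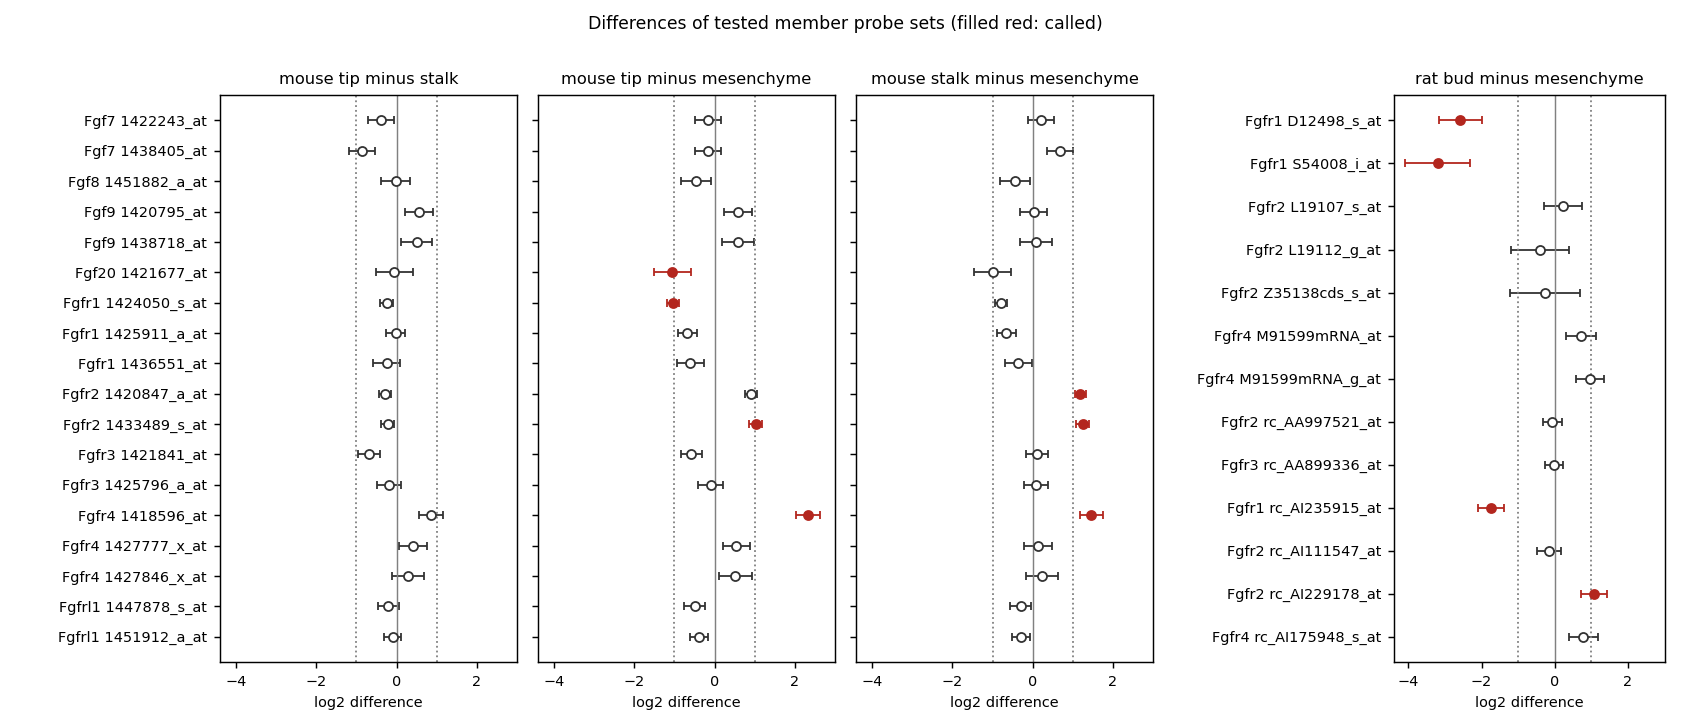
Log2 differences of the 18 tested mouse and 13 tested rat probe sets, with 95% confidence intervals from limma. Filled red points were called, dotted lines mark 2-fold, and the rat panel holds the first design, B and C from top to bottom. Calls fall on Fgf20, Fgfr1, Fgfr2 and Fgfr4 in mouse and on Fgfr1 and Fgfr2 in rat.

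Fgfr4 had the largest mouse difference of the family. On 1418596_at it read 192 on both tip arrays, 99.1 and 98.3 in stalks, and 23.4 and 28.1 in mesenchyme. The 3 tissues were fully separated, in the order tip, stalk, mesenchyme, and the repeat arrays were close. Tips were 4.99-fold above mesenchyme on the log2(intensity + 16) scale (2.32 log2 units, SE 0.13, adjusted p = 1.52e-06) and stalks 2.75-fold (1.46, SE 0.13, adjusted p = 8.97e-05). The step from stalk to tip was 1.81-fold (0.86, SE 0.13, adjusted p = 0.00122), short of 2-fold. Mesenchyme was below the threshold for testing, so the size depends on the added constant. Tip minus mesenchyme was 2.86 with a constant of 1 and 1.51 with 64, and the stalk call was lost with 64 (0.86). Summed bud epithelium markers had the same order, at 28021 to 28785 in tips, 15442 to 15539 in stalks and 756 to 802 in mesenchyme. Of these 11 markers, 4 were called higher in tips than in stalks, 0 lower and 7 not called. The part of cell composition in the Fgfr4 differences was not tested.

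The other 4 Fgfr4 probe sets showed the tip highest on average, with smaller differences. Probe set 1427777_x_at read 95.2 and 120.2 in tips, 74.0 and 79.2 in stalks and 63.3 and 74.5 in mesenchyme, a tip to mesenchyme difference of 0.54 (SE 0.15, adjusted p = 0.0224). With 1427846_x_at the values were 83.0 and 125 in tips, 77.0 and 84.9 in stalks and 66.0 and 66.6 in mesenchyme (0.52, SE 0.18, adjusted p = 0.0498). Stalk minus mesenchyme did not pass for either (adjusted p = 0.660 and 0.474). The _x_ in their names marks probe sets with some probes that match other sequences as well. Neither of the remaining pair reached the median of the array in any tissue. There 1427776_a_at read 29.9 and 23.1, 18.8 and 15.1, and 12.4 and 11.4 in tips, stalks and mesenchyme, which were separated in the same order, and 1427845_at read 26.4 and 21.1, 17.9 and 22.2, and 20.1 and 18.6, where stalks overlapped both other tissues.

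Fgfr2, whose loss from the bud is known to impair branching, was the receptor with calls for more than 1 mouse probe set. With 1433489_s_at it read 1423 and 1667 in tips, 1749.9 and 1847 in stalks and 754 and 744 in mesenchyme. With 1420847_a_at it read 1095 and 1123, 1352 and 1357, and 549.9 and 623. The 3 tissues did not overlap in either, with stalks highest and mesenchyme lowest. Stalks were 2.37-fold and 2.28-fold above mesenchyme (1.25, SE 0.07, adjusted p = 5.78e-06, and 1.19, SE 0.06, adjusted p = 3.45e-06). Tips were 2.03-fold and 1.87-fold above mesenchyme (1.02, SE 0.07, adjusted p = 6.21e-06, and 0.90, SE 0.06, adjusted p = 5.80e-06), so that 1 of the pair was called. Its call was lost without the second tip array (0.91) and with an added constant of 64 (0.98), and the other was gained against a 1.5-fold null (adjusted p = 0.00559). Tips were a little below stalks (-0.22, SE 0.07, adjusted p = 0.0463, and -0.29, SE 0.06, adjusted p = 0.00847). Fgfr2 and Fgfr4 thus differed in order between the tip and stalk pools, with Fgfr4 highest in tips and Fgfr2 highest in stalks. The last probe set, 1443211_at, read between 32.3 and 37.9 on all 6 arrays and was not tested.

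Both receptors had probe sets called higher in mouse bud tissue, and the region around the start of each rat gene is shown. The sequences are the 300 bases from 250 before to 50 after the start in RefSeq, build GRCr8, printed 5' to 3' on the gene's strand, where 8 of the 10 genes had an entry. The Fgfr2 region is chr1:194280865-194281164 and that of Fgfr4 is chr17:9481340-9481639, both on the minus strand. Capitals mark GC boxes, searched as GGGCGG or its reverse complement CCGCCC.
Fgfr2: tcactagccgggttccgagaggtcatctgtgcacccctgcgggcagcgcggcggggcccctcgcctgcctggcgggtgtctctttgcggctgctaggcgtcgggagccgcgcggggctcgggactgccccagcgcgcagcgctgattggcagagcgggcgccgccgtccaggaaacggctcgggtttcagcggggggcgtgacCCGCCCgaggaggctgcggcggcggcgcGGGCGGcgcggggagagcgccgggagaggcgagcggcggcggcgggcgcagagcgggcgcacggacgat
Fgfr4: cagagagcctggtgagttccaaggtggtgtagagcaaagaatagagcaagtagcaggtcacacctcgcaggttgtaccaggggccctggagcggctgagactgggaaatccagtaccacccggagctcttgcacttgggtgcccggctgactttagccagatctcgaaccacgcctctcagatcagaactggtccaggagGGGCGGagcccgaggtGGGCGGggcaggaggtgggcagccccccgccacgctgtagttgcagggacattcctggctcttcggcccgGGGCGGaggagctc
The Fgfr2 region held 77.67% G and C and 48 CpG dinucleotides, and that of Fgfr4 63.33% and 14, where the medians over all 33469 rat promoters of this length were 51.67% and 7. As many CpGs as in Fgfr2 were found in 1.04% of all promoters, and as many as in Fgfr4 in 33.54%. There were 2 GC boxes in Fgfr2 and 3 in Fgfr4, and 33.06% of all promoters held at least 1. The ETS core CCGGAA, or TTCCGG on the other strand, and the letters TATAAA, or TTTATA, were in neither window, and in 14.95% and 14.22% of all. These matches describe letters and say nothing about binding.

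Fgfr1 ran in the opposite direction. This receptor is known from many mesenchymal tissues and binds a broad set of ligands. On 1424050_s_at it read 321 and 289 in tips, 367 and 363 in stalks and 654 and 631 in mesenchyme. The tissues were fully separated and rose in that order. Tips were below mesenchyme by 2.05-fold (-1.04, SE 0.07, adjusted p = 5.50e-06), a call that was lost with an added constant of 64 (-0.94) and without the second tip array (-0.97), and stalks by 1.73-fold (-0.79, SE 0.07, adjusted p = 9.55e-05). Tips were slightly below stalks (-0.25, SE 0.07, adjusted p = 0.0292).

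Both other Fgfr1 probe sets also read highest in mesenchyme. With 1425911_a_at the arrays gave 235 and 189 in tips, 219 and 210.1 in stalks and 351 and 344 in mesenchyme. Tips and stalks overlapped there, and were lower than mesenchyme by -0.68 (SE 0.11, adjusted p = 0.00110) and -0.66 (SE 0.11, adjusted p = 0.00349). With 1436551_at they gave 44 and 41.1, 51.4 and 55.4, and 82.7 and 64.4. Only its tip to mesenchyme difference passed (-0.61, SE 0.15, adjusted p = 0.0118), and its stalk to mesenchyme difference did not (-0.36, adjusted p = 0.164). Summed nephron progenitor markers rose from tips to stalks to mesenchyme, as the brightest Fgfr1 probe set did. The endothelial, erythroid, macrophage and neuronal sums rose in the same order. Of the progenitor markers, Cited1 read higher in tips than in stalks (0.30). The part of cell composition in the Fgfr1 differences was not tested.

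Fgfr3 read lowest in tips, with stalk and mesenchyme arrays overlapping. Fgfr3 is best known as a brake on the growth of cartilage. Its probe set 1421841_at read 103 and 109.7 in tips, 167 and 195 in stalks, and 170.1 and 162 in mesenchyme. Both tip arrays were below all others, and the mesenchyme arrays fell around the lower stalk array. Tips were below stalks by 1.61-fold (-0.68, SE 0.12, adjusted p = 0.00259) and below mesenchyme by 1.49-fold (-0.58, SE 0.12, adjusted p = 0.00482). Stalk minus mesenchyme was 0.11 (95% interval -0.16 to 0.38, adjusted p = 0.632). The second probe set, 1425796_a_at, gave 51.6 and 54.1, 66.6 and 57.9, and 58.6 and 57.1, again with tips lowest, but none of its differences passed (adjusted p = 0.345, 0.634 and 0.760). Tissues low and high in this gene were also low and high in the summed stromal markers, whose part was not tested.

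Fgfrl1 binds FGFs but has no kinase domain, and its loss in mice is known to block early nephron formation. It was measured at 411 and 507 in tips, 535 and 521 in stalks and 590.3 and 721 in mesenchyme with 1447878_s_at. With 1451912_a_at it read 168 and 179.6, 180.3 and 193, and 237 and 226. In both the tips were lowest and the mesenchyme highest, with no overlap between tissues. Tips were below mesenchyme by -0.50 (SE 0.11, adjusted p = 0.00809) and -0.38 (SE 0.10, adjusted p = 0.0139), both short of 2-fold. Stalks against mesenchyme (-0.30 and -0.29, adjusted p = 0.135 and 0.0929) and tips against stalks (-0.20 and -0.09, adjusted p = 0.221 and 0.492) did not pass.

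In rat, whole buds were set against mesenchyme, so tip and stalk cannot be told apart there, and stage and array designs differ from mouse. Fgfr1 was lower in buds on 3 of its 4 probe sets, all 3 of them called. On the first design D12498_s_at read 255 and 146 in buds and 1291 and 1178 in mesenchyme. S54008_i_at read 204 and 76.5 in buds and 1208 and 1389 in mesenchyme. On design C, rc_AI235915_at read 193 and 150.0 in buds and 609.7 and 606 in mesenchyme. Bud and mesenchyme arrays were far apart in each of these 3, and the second bud labeling was the lower of the bud arrays each time. The differences were -2.58 (5.96-fold, SE 0.24, adjusted p = 0.00103), -3.20 (9.20-fold, SE 0.37, adjusted p = 0.00257) and -1.74 (3.35-fold, SE 0.14, adjusted p = 0.00260). Without the second bud labeling, whose Gapdh signal leaned to the 3' end, they were -2.20, -2.58 and -1.58. The call on design C was lost without the first mesenchyme array (-1.74, adjusted p = 0.0590). The fourth probe set, AF000144_at, was dim, at 77.2 and 80.5 in buds and 90.1 and 75.2 in mesenchyme, and was not tested. The mouse values for Fgfr1, from -1.04 to -0.36 in its 3 probe sets, have the same sign.

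Rat Fgfr4 was brighter in buds on all of its 3 probe sets, by 1.64-fold to 1.94-fold. M91599mRNA_at read 227 and 172 in buds and 124 and 105 in mesenchyme, and M91599mRNA_g_at read 183 and 153 against 82.8 and 73.9. On design C rc_AI175948_s_at read 568 and 708 against 337 and 393. Every bud array lay above every mesenchyme array. Only the bud arrays of M91599mRNA_g_at reached the median of the array, and it was tested for that reason. The differences were 0.72 (SE 0.17, adjusted p = 0.0452), 0.96 (SE 0.16, adjusted p = 0.0110) and 0.77 (SE 0.15, adjusted p = 0.0391). Without the second bud labeling they were 0.90, 1.08 and 0.62. The middle one then passed 2-fold, as it did with an added constant of 1 (1.09), and the last no longer passed (adjusted p = 0.0793).

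Rat Fgfr2 gave no single answer over its 7 probe sets. On design C rc_AI229178_at was called higher in buds, at 546 and 567 against 286 and 228 (1.07, 2.11-fold, SE 0.14, adjusted p = 0.0106). The same array design carried rc_AI111547_at, which read 509.9 and 426 in buds and 514 and 523 in mesenchyme (-0.15, 95% interval -0.48 to 0.18). The Fgfr2 call was lost with an added constant of 64 (0.95), against a 1.5-fold null (adjusted p = 0.188) and without either mesenchyme array (1.23, adjusted p = 0.0664, and 0.92, adjusted p = 0.10). On design B rc_AA997521_at read 166 and 152 in buds and 168 and 167 in mesenchyme (-0.07, 95% interval -0.33 to 0.19). Without the second bud labeling, rc_AA997521_at and rc_AI111547_at gave -0.011 and -0.023.

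The first design carried 4 probe sets of rat Fgfr2, and in 3 of them the 2 bud labelings read well apart. L19107_s_at read 152 and 94.7 in buds and 102 and 98.9 in mesenchyme. L19112_g_at read 156 and 65.4 against 144 and 137. Z35138cds_s_at read 377 and 137 against 305 and 259. In these 3 the first bud array was above both mesenchyme arrays and the second below both. Their differences of 0.23, -0.40 and -0.28 did not pass (adjusted p = 0.585, 0.520 and 0.741). Without the second bud labeling they were 0.53, 0.14 and 0.40, all positive, and without the first the last of these was -0.96. L19112_at, at 71.4 and 60.5 against 98.5 and 104, had both bud arrays below both mesenchyme arrays (-0.52) but was not tested. The second bud labeling thus set the sign for 2 Fgfr2 probe sets, and the part of its 3' lean in this was not tested.

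Rat Fgfr3 and the rat ligands were flat or dim. Fgfr3 read 174 and 175 in buds and 176 and 180.3 in mesenchyme with rc_AA899336_at (-0.03, 95% interval -0.27 to 0.21). Its other probe sets were not tested, rc_AI136304_at at 8.15 and 9.40 against 9.10 and 9.35, and rc_AI145424_at at 45.2 and 67.6 against 77.8 and 97.0. Fgf9 with D14839_at read 116 and 93.8 in buds and 86.2 and 78.7 in mesenchyme. Both bud arrays were the higher, which is the side on which mouse tips lay, but the probe set was under the threshold and was not tested. Fgf10 with D79215_at read 51.1 and 46.3 against 53.6 and 72.1, and Fgf7 with X56551cds_at 32.7 and 38.0 against 31.6 and 36.5, both untested.

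Over the rat designs, 0 of 7 tested probe sets were called higher and 2 lower in buds on the first design, where 2.77% and 3.03% of all were. On design B 0 of 2 were called, where 3.06% of all were higher and 2.74% lower. On design C 1 of 4 was higher and 1 lower, beside 2.23% and 2.4% of all. The medians of the tested members were -0.28, -0.05 and 0.31, and those of all tested probe sets 0.02, -0.02 and -0.01.

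**Figure D3:**
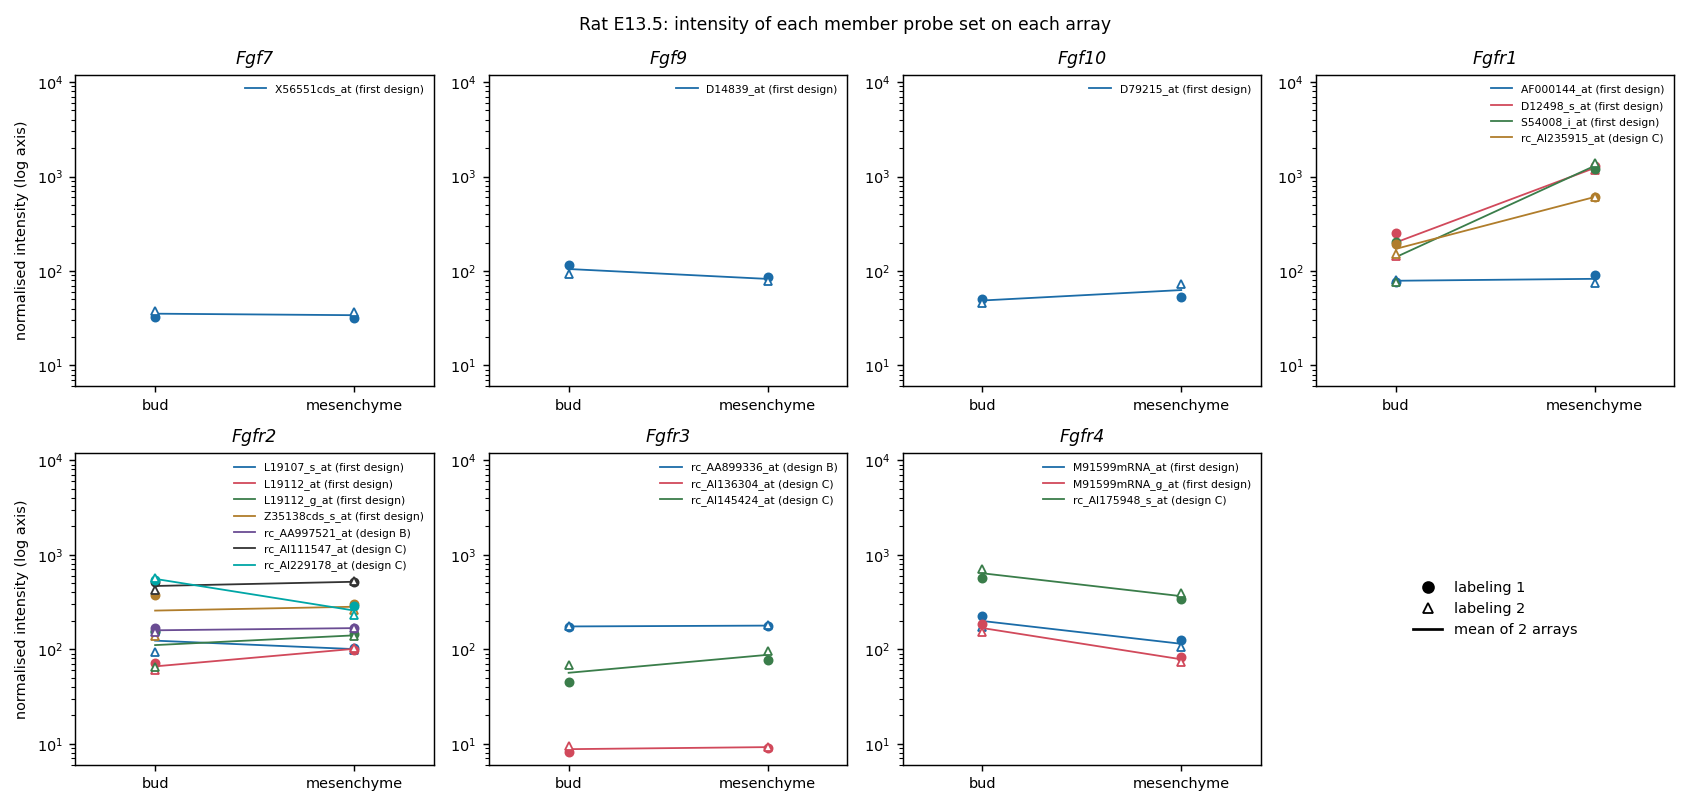
Normalised intensity (log axis) of all 20 rat probe sets in bud and mesenchyme, 1 panel per gene. Filled circles and open triangles are the first and second labeling, lines join the means of 2 arrays and colours are probe sets with their design. Fgfr1 rises to mesenchyme in 3 probe sets, Fgfr4 falls in 3, and the 2 bud labelings of several Fgfr2 probe sets lie on either side of the mesenchyme.

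Other genes of the pathway were read from 4 lists, each gene through its brightest probe set with 1 symbol. The counts for these lists stand beside those for all mouse genes read in this way, of which 1.16% were called higher and 4.17% lower in tips than in stalks, 4.65% and 5.05% in tips than in mesenchyme, and 2.93% and 0.558% in stalks than in mesenchyme. Of 17 other genes of the FGF family, not all of them ligands of the receptors, 4 were bright enough to be tested, Fgf4, Fgf11, Fgf12 and Fgf13. Fgf12, an intracellular family member that acts on sodium channels, was called higher in tips than in mesenchyme, at 136 ± 30.1 (SD, n = 2 arrays) against 30.6 ± 2.63 (1.69, SE 0.16, adjusted p = 5.44e-05). No other gene of this list was called in any mouse comparison. Of 22 adaptors and Ras-ERK genes listed, 15 had a probe set with 1 symbol, and all 15 were tested. In the 3 mouse comparisons 0 were called, with medians of -0.08, -0.15 and -0.12. With the adjusted p alone, 5, 7 and 4 of the 15 passed, beside 28.5%, 33.6% and 13.1% of all tested probe sets. These shares are over probe sets and not over genes by their brightest probe set, so the units differ.

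Of 20 tested co-receptors and extracellular modulators, 0 were called higher and 4 lower in tips than in stalks, and 16 were not called, with a median of -0.26. Between tips and mesenchyme 1 was higher, 5 were lower and 14 were not called, with a median of -0.05. Between stalks and mesenchyme 1 was higher and 0 lower, with a median of 0.14. With the adjusted p alone, in either direction, 12, 9 and 9 of the 20 passed in these comparisons. The shares over all tested probe sets, not genes, were 28.5%, 33.6% and 13.1%. Sulf1 and Sulf2, which trim sulphate groups from heparan sulphate, were called lower in tips than in stalks (-4.36, SE 0.15, adjusted p = 1.68e-07, and -1.11, SE 0.05, adjusted p = 8.78e-07). Sulf1 read 40.3 ± 14.2 in tips, 1122 ± 29.2 in stalks and 382 ± 10.1 in mesenchyme (SD, n = 2 arrays), so that stalks were also above mesenchyme (1.52, SE 0.15, adjusted p = 1.61e-04). Flrt3, a membrane protein that binds FGF receptors, was lower in tips than in stalks (-2.14, SE 0.13, adjusted p = 6.90e-06) and than in mesenchyme (-2.06, SE 0.13, adjusted p = 4.24e-06). Of the enzymes that add sulphate at the 6-O position, Hs6st1 was higher in tips than in mesenchyme (1.10, SE 0.09, adjusted p = 2.58e-05) and Hs6st2 lower (-1.41, SE 0.09, adjusted p = 3.73e-06). Tips, low in Sulf1, Sulf2 and Flrt3, were also the tissue with the lowest summed stromal markers, and the part of stromal RNA was not tested.

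Of 20 tested feedback and target genes, 4 were called higher and 1 lower in tips than in stalks, and 15 were not called, with a median of 0.33. Between tips and mesenchyme 5 were higher, 1 was lower and 14 were not called, with a median of 0.55. Between stalks and mesenchyme 0 were called, with a median of 0.05. With the adjusted p alone, in either direction, 14, 17 and 13 of the 20 passed in these comparisons. Over all tested probe sets, not genes, the shares were 28.5%, 33.6% and 13.1%. Dusp4 and Dusp14 are phosphatases for MAP kinases and their relatives. Dusp4 was higher in tips than in stalks, at 353 ± 11.5 against 146 ± 6.02 (1.19, SE 0.09, adjusted p = 2.28e-05), and Dusp14 was higher in tips than in mesenchyme, at 165 ± 13.4 against 57.2 ± 2.46 (1.30, SE 0.13, adjusted p = 5.58e-05; all SD, n = 2 arrays). Spry1, an inhibitor of receptor signalling, and the ETS factors Etv4 and Etv5 were called higher in both tip comparisons, by 1.33 to 1.94. Ccnd1, a cyclin of the G1 phase, was called higher in tips than in mesenchyme (1.08, SE 0.05, adjusted p = 8.31e-07). The 1 gene of the list that was called lower in tips, in both comparisons, was Fos, an immediate-early gene (-1.57 and -1.20). Ret, the GDNF receptor of the bud that also feeds the Ras-ERK cascade, read 1531 ± 58.0 in tips, 304 ± 7.58 in stalks and 23.6 ± 5.34 in mesenchyme, and its part in these differences was not tested. Among the FGF receptors, Fgfr4 1418596_at was 1.81-fold higher in tips than in stalks (0.86, SE 0.13, adjusted p = 0.00122), short of 2-fold. The brightest probe sets of Fgfr1, Fgfr2 and Fgfr3 read lower in tips than in stalks (-0.25, -0.22 and -0.68). The part of these receptors in the feedback and target genes was not tested either.

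**Figure D4:**
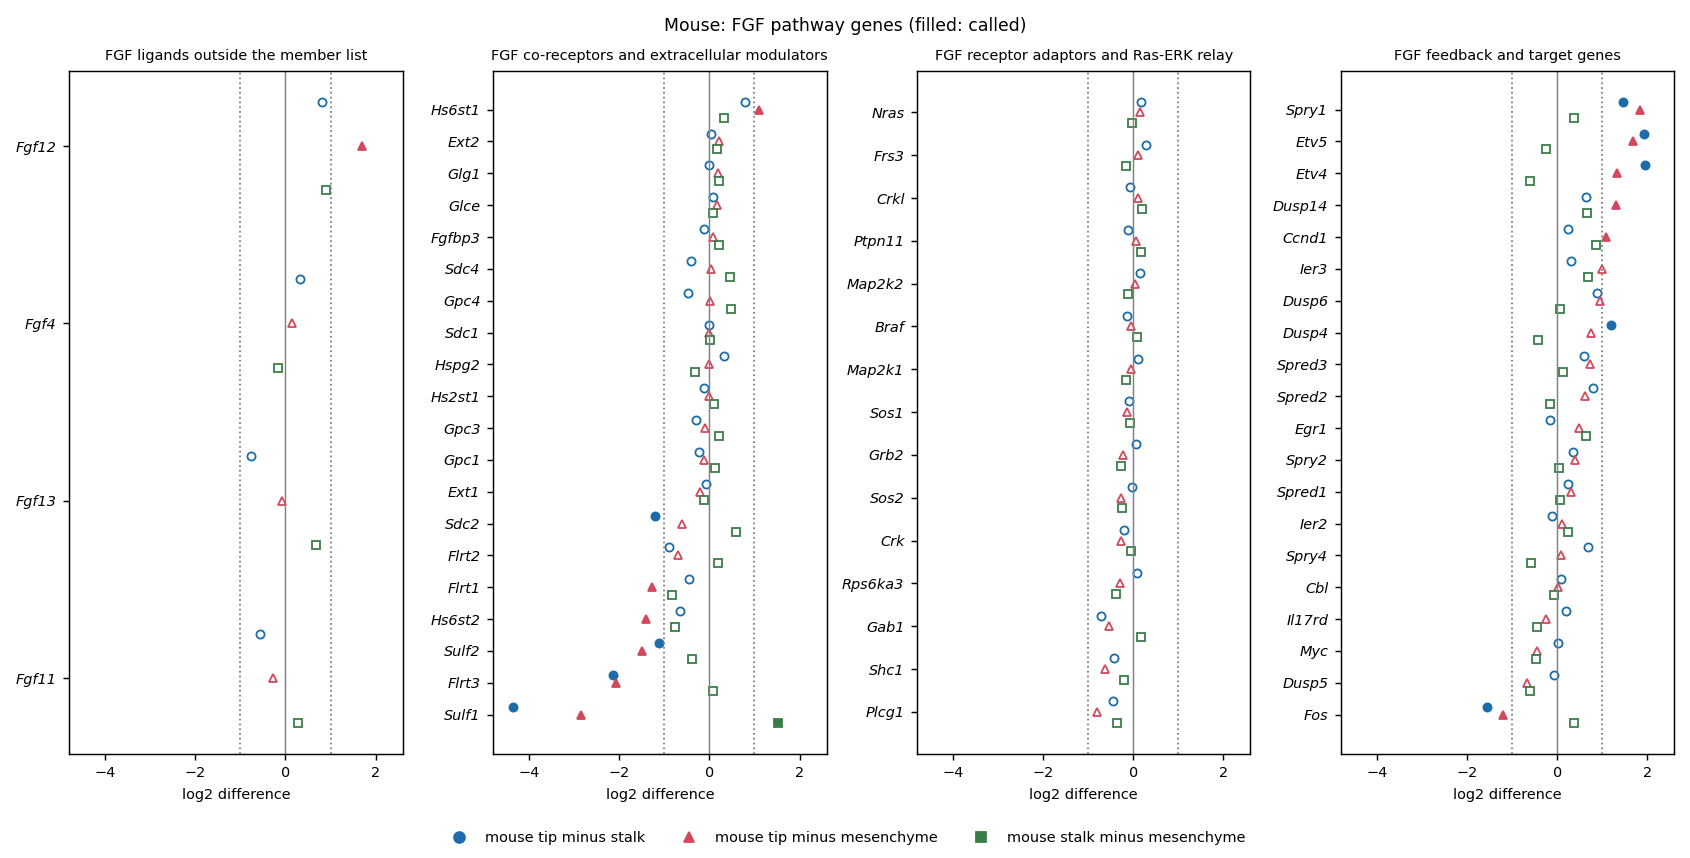
Log2 differences of the tested genes of 4 FGF pathway lists in the mouse comparisons, each gene by its brightest probe set. Circles are tip minus stalk, triangles tip minus mesenchyme and squares stalk minus mesenchyme, filled where called, with dotted lines at 2-fold. Adaptors stay between the dotted lines, while Sulf1 and Flrt3 lie far to the left and Spry1, Etv4 and Etv5 to the right in the tip comparisons.

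The same lists were smaller in rat. On the first design, where 3.22% of genes were called higher and 2.59% lower in buds, 3 of 9 feedback and target genes were higher, Spry1 (2.06, SE 0.16, adjusted p = 4.86e-04), Egr1 (1.27, SE 0.15, adjusted p = 0.00300) and Ccnd1 (1.23, SE 0.13, adjusted p = 0.00168). Of 8 adaptor genes 1 was lower, Crk (-1.07, SE 0.26, adjusted p = 0.0441), and of 9 co-receptors and modulators 0 were called. On design B, with 3.2% of genes higher and 2.22% lower, Etv1, another ETS factor, was higher in buds at 357 ± 123 against 42.4 ± 0.0177 (SD, n = 2 arrays; 2.64, SE 0.22, adjusted p = 0.00106), as was Glce, a heparan sulphate epimerase (1.28, SE 0.10, adjusted p = 8.66e-04). On design C, with 2.22% and 1.77%, the 1 call was Gpc4, a cell-surface heparan sulphate proteoglycan (1.38, SE 0.10, adjusted p = 0.00205). None of the other rat genes of the FGF family on the designs was bright enough to be tested.

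For the 4 mouse members with a call, the genes with the most similar profile were sought, as the smallest root mean square distance between log2 values centred on each gene's mean over the 6 arrays, among 12359 other genes. Fgfr4 lay nearest to Lrba (distance 0.058), Sostdc1 (0.072) and L1cam (0.079). Fgfr2 lay nearest to Ahr (0.090), Itm2b (0.102) and Klf6 (0.103). Fgfr1 lay nearest to Zfp516 (0.065), Slc4a1 and Cdhr1 (both 0.066), of which Slc4a1 is the anion exchanger of red cells, and Fgf20 to Greb1l (0.150), Slc16a6 (0.150) and Sall2 (0.167). Over 6 arrays from 3 pools, many genes share such an order, and the distances are given as a description.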

How the data were processed

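Total RNA of mouse and rat embryonic kidney tissues was measured on 18 Affymetrix arrays in 4 deposited tables. The authors deposited, for every array, a linear intensity per probe set. How the intensities were summarised and scaled is not given in the sources used here. Per the labels' protocols, 1 ug of column-purified RNA was used per labeling.

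Samples were grouped by the tissue in their labels, with 2 arrays per tissue and design. Within a table, intensities were quantile normalised and taken as log2(intensity + 16). Affymetrix control probe sets were dropped afterwards, 64 in mouse and 59 per rat table. This left 23971 mouse and 4626, 4666 and 4660 rat probe sets to be tested. Each table was fitted on its own with limma 3.58.1 in R 4.3.3 (lmFit, and eBayes with an intensity trend), and the 6 mouse arrays shared 1 fit. The code was tested on simulated data. Names came from the platform annotation, and 0 probe sets were shared between a member and another gene. All member probe sets are reported. Of each pathway list, at most the 5 largest calls per direction are named. The members and lists were chosen with earlier results of these data known. The number of arrays limits the precision. Alternatives were the deposited values without normalisation, median scaling, other added constants and filters, no trend, a test against 1.5-fold, the replicate number as a block, and leaving out each array. No mouse coordinates are given, because the build behind the tables is not given in the sources used here.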

Additional observations from a re-analysis of the deposited data

Results flagged for a closer look

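The mouse Fgfr3 probe set 1421841_at was set apart because tips and stalks differed in their position relative to mesenchyme. Tips were below mesenchyme and the stalk mean was slightly above it, so that tip minus stalk, the same difference as in the report, was -0.68. The second Fgfr3 probe set, 1425796_a_at, gave -0.18 and did not pass (limma adjusted p = 0.345).

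In rat, 2 tested Fgfr2 probe sets lay on the other side of 0 from the called mouse Fgfr2 probe sets, with both bud arrays below both mesenchyme arrays. The differences were -0.071 for rc_AA997521_at and -0.15 for rc_AI111547_at, and neither passed. Without the second bud labeling they were -0.011 and -0.023, close to 0. L19112_at, under the threshold and not tested, also had both bud arrays below both mesenchyme arrays (-0.52). The difference from mouse was not tested.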

How the results depend on the processing

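Of 823 member values recomputed under an alternative, 790 kept their direction and their side of the threshold, 13 lost a call, 8 gained one and 12 changed sign. Probe sets that an alternative left untested are not among the 823, so calls that ended in this way are not among the 13. With the filter at the 75th percentile, only 6 mouse member probe sets were still tested. The calls of Fgf20 and Fgfr4 against mesenchyme ended there without being counted. The sign changes were all in differences that were not called. Fgf20 tip minus stalk became 0.0054 on the deposited values and lay between -0.14 and 0.032 without 1 array, the highest without the first tip array. Fgf8 tip minus stalk became 0.028 on the deposited values, 0.011 with median scaling and -0.18 to 0.14 without 1 array, positive without the second tip array (0.14) or the first stalk array (0.053). Fgfr1 1425911_a_at tip minus stalk lay between -0.17 and 0.12, positive without the same arrays (0.12 and 0.0064). Stalk minus mesenchyme lay between -0.013 and 0.054 for Fgf9 1420795_at and between -0.088 and 0.26 for 1438718_at, negative without the first and the second mesenchyme array. In rat, L19112_g_at lay between -0.94 and 0.14 and Z35138cds_s_at between -0.96 and 0.40, positive without the second bud array. The cause was not tested.

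Tip minus stalk, tip minus mesenchyme and stalk minus mesenchyme called 1098, 1954 and 663 probe sets, and the rat designs 268, 271 and 216. With an added constant of 64 these were 671, 1266 and 392 in mouse and 172 on design B. With the filter at the 75th percentile, which tests fewer probe sets, they were 1286 for tip minus mesenchyme and 176 on design B. Against 1.5-fold the rat counts were 155, 163 and 124. Leaving out 1 array gave 1058 to 1258, 1954 to 2043 and 651 to 699 in mouse and 238 to 475, 226 to 370 and 80 to 360 on the rat designs. The count of 475 came without the first bud array of the first design, and on design C 360 came without the first bud array, 80 without the first and 94 without the second mesenchyme array. A lone array was assumed to vary like the others.

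Member calls between tips and stalks went from 0 to 1 with an added constant of 1 and stayed 0 without any 1 array. Between tips and mesenchyme they went from 4 to 1 with a constant of 64, to 2 with the 75th percentile filter, and to between 2 and 4 without 1 array. Between stalks and mesenchyme they went from 3 to 2 with a constant of 64 or with the 75th percentile filter, and to between 3 and 4 without 1 array. On the first rat design they went from 2 to between 2 and 3, on design B they stayed at 0, and on design C they went from 2 to 1 with a constant of 64 or against 1.5-fold, and to between 0 and 2 without 1 array.

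Arrays with the same labeling number deviated together (correlations of 0.467, 0.566 and 0.424 between mouse tissues and 0.308, 0.221 and 0.291 on the rat designs), but the labels do not tie a number to a batch. With the number as a replicate block, no member call changed, and the counts on the rat designs were 307, 276 and 221.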
